A study of Mus musculus with 8 samples.

Results

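The interleukin 6 (IL-6) pathway was described in mouse prostate through 10 genes, which encode the cytokines IL-6 and LIF (Il6, Lif), the receptor chains Il6ra and Il6st, the signal transducer Stat3, the feedback inhibitors Socs1, Socs2 and Socs3 and the C/EBP transcription factors Cebpb and Cebpd. They were matched by Ensembl identifier among the 54532 genes of the count table, and 9 of the 10 were among the 15472 genes that passed the filter on low counts and were tested. The 10 genes were chosen by their place in the pathway and with the etanercept-against-control values of these same mice in view, so that every value of that comparison given for them is a description and supports nothing beyond itself. Bulk RNA-seq had been made from prostates of male NOD mice (NOD/ShiLtJ), an inbred strain that develops autoimmune disease, to find which genes differ after TNF is blocked. The 4 control mice received PBS and the 4 treated mice received etanercept, a soluble TNF receptor fusion protein, (4 mg/kg, injected into the peritoneum 2 times per week over 5 weeks), and all tissues were taken at 30 weeks of age. The labels name no transgene or deletion, the study pooled diabetic and non-diabetic mice without the labels giving the status of these 8, and each library came from the prostate of 1 mouse, named here by group and animal number (control 1, 3, 65 and 69, etanercept 17, 19, 50 and 52).

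IL-6 binds the ligand-binding receptor chain Il6ra, and the complex then joins Il6st (gp130), the signalling chain that receptors for LIF and the other cytokines of the family also use. JAK kinases bound to gp130 phosphorylate Stat3, which enters the nucleus and induces, among other genes, Socs3, whose protein blocks the receptor and closes the loop. Cebpb and Cebpd are induced by IL-6 and by TNF in many cell types and drive acute-phase and cytokine genes, so the pathway lies downstream of inflammatory signals in macrophages, stroma and epithelium of inflamed tissues.

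The total count per library was between 13760669 and 25178942, and the 10 genes with most counts held between 15.6% and 31.1% of it. The 10 pathway genes together made up the smallest share of a library in control 69 (0.0254%) and the largest in control 3 (0.0502%). Several libraries stood apart. In etanercept 17, 8.5% of the counts came from 5 seminal vesicle genes, against 0.327% in control 69 and at most 0.0578% in the other mice. In control 3, the mean log2(CPM + 1) of 5 skeletal muscle genes was 7.71, against 1.40 to 3.75 in the other mice. Prostate markers were present in every mouse, with a summed level of 10211 to 246830 CPM (counts scaled to library size after TMM normalization) over 6 genes. In whole tissue, fewer cells of a type and less RNA per cell cannot be told apart.

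The 3 genes Socs3, Cebpb and Il6ra were those whose 4 etanercept-treated mice all lay below all 4 control mice, as was so for 2.53% of all genes tested, and their promoters are shown for that reason, as RefSeq gives them for GRCm38.p6, from 250 bases before the annotated start to 50 bases after it, 5′ to 3′ on the strand of the gene. Capitals mark a match to the STAT motif TTCNNNGAA, the only one of 3 motifs searched that was found in any of these windows. They lie at chr11:117969317-117969616 (Socs3, minus strand, a start inside the longer GENCODE gene model), chr2:167688665-167688964 (Cebpb, plus strand) and chr3:89913147-89913446 (Il6ra, minus strand).
Socs3: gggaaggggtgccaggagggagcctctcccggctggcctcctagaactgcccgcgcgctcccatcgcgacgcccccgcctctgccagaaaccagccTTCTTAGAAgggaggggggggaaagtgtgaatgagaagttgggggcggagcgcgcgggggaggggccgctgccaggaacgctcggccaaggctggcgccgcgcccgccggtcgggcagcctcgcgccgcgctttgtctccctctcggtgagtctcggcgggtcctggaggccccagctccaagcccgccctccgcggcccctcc
Cebpb: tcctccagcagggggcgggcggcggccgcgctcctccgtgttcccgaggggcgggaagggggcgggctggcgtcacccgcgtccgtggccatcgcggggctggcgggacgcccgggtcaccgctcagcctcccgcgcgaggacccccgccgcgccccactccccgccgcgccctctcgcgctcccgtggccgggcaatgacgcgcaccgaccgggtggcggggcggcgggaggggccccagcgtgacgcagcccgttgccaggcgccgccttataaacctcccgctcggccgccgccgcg
Il6ra: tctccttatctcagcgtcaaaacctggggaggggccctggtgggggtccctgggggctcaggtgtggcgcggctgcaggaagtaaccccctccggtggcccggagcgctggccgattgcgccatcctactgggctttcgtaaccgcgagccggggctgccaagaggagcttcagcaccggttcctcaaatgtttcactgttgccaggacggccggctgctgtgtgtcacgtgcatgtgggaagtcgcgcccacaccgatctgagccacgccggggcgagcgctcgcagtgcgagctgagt

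In the Socs3 window the match TTCTTAGAA began 154 bases before the start. Windows of the same 300-base length from 32851 promoters were searched on both strands, and 8.3% of them held this motif, 10.8% held the C/EBP motif TTGCNNAA and 7.81% held the AP-1 motif TGANTCA. Among the 8 pathway genes with a window, Il6 held a C/EBP match (TTGTGCAA, 128 bases before the start) and an AP-1 match, and Lif held an AP-1 match. The windows of Il6st, Stat3 and Socs1 held none of the 3 motifs. A match of letters is no evidence of binding, and the motifs do not overlap each other in these windows. G and C made up 73.3% of the Socs3 window, 80.7% of the Cebpb window and 66% of the Il6ra window, against a median of 52.7% over all windows.

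The levels of the 10 genes were first set in order across all 8 mice, as FPKM (counts scaled to exon length and library size), since only values per length compare between genes. Cebpb had the highest median with 15.9 FPKM, followed by Il6st with 13.7, Stat3 with 10.7 and Cebpd with 5.71. The first place was not the same in both groups. Cebpb was at 18.5 to 31.6 FPKM against 9.67 to 17.5 FPKM for Il6st in the control mice. In the treated mice Cebpb was at 10.6 to 13.3 FPKM against 13.1 to 18.5 FPKM, and only in etanercept 19 was it above Il6st. Socs2 had a median of 3.51 FPKM, Socs3 of 3.13, Socs1 of 2.06 and Il6ra of 1.37. Both cytokines were at the bottom, Lif with 0.143 FPKM and Il6 with 0. Every gene's range over all 8 mice overlapped that of the next in the order. Within 1 group this was not always so, as Cebpb lay wholly above Il6st in the control mice and Il6st wholly above Stat3 (9.20 to 11.1 FPKM) in the treated mice. Mouse by mouse, Socs3 was above Socs1 in 8 of 8 mice and Il6st above Stat3 in 7 of 8. The shared signalling chain was thus present at a higher level per length than the IL-6-specific chain in every mouse. The ratio of Il6st to Il6ra in FPKM was 6.68, 12.1, 6.42 and 6.78 in the control mice and 23.7, 9.997, 21.3 and 24.0 in the etanercept-treated mice, with etanercept 19 below control 3.

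**Figure D1:**
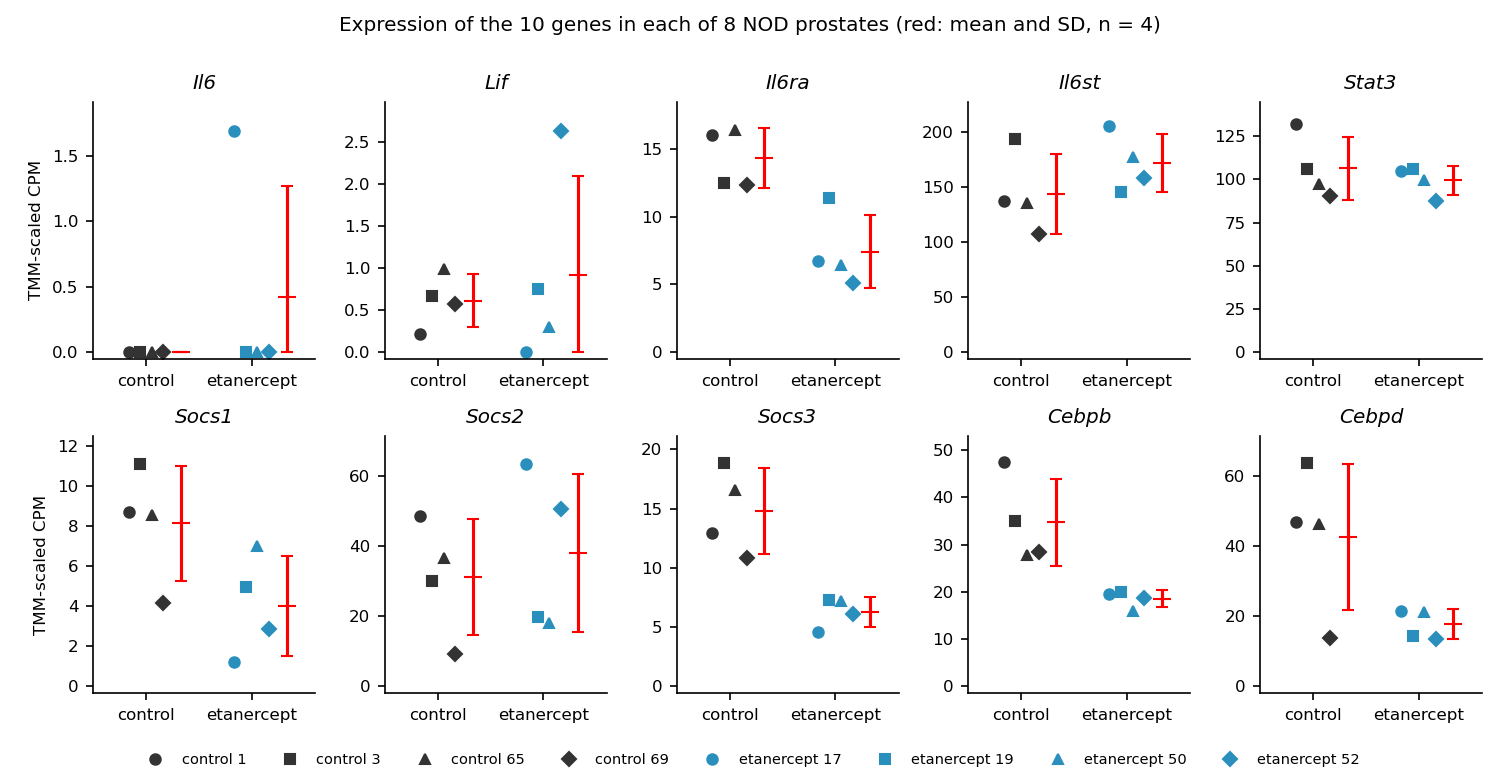
Expression of the 10 pathway genes in each mouse, 1 panel per gene. The vertical axis is TMM-scaled CPM on a linear scale from 0, each point is 1 mouse (control mice dark, etanercept-treated mice blue) and the red bar is the mean with 1 SD (n = 4), ended at 0 where it would go below. For Il6ra, Socs3 and Cebpb all blue points lie below all dark points, for Cebpd control 69 lies among the blue points, and Il6 is at 0 in 7 of 8 mice.

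The fold changes that follow are log2 values of etanercept over control from edgeR's quasi-likelihood test, each with its standard error (SE). At an adjusted p of at most 0.05 (Benjamini-Hochberg over all genes tested), edgeR called 0 genes (0%), and so 0 of the 9 pathway genes. DESeq2 called 21 genes, 15 lower and 6 higher, of which 0 were pathway genes. With an unadjusted threshold of 0.05, edgeR gave 561 genes lower (3.63%) and 463 higher (2.99%), and the split moved to 837 lower and 285 higher with library size alone and to 513 lower and 274 higher with the GC trend removed. Without control 69 there were 956 lower and 870 higher, and the number higher was 277 without control 65 and 263 without etanercept 52. Of the 9 pathway genes, 4 were lower at that threshold (Il6ra, Socs3, Cebpb and Cebpd) and 0 were higher. The treated mice were all above the 4 control mice for 2.41% of the genes tested. As the genes were put together with this contrast known, nothing is read from their counts against these shares. The adjusted p in edgeR was between 0.739 and 0.982 for the 9 genes.

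Of the cytokines, Il6, which encodes the founding ligand of the family, had 0 counts in 7 of the 8 mice. A count of 0 allowed a share of up to 2.18e-05% in the shallowest library (3 counts of the total) and 1.19e-05% in the deepest. In etanercept 17 it had 29 counts, 1.69 CPM or 0.000163% of the library (Wilson interval at a confidence level of 95%, 0.000114% to 0.000235%, counting error only). That mouse is the one with the seminal vesicle genes, and the part of these in the Il6 counts was not tested. No fold was formed for Il6.

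Lif, a cytokine that signals through gp130 with its own receptor chain, was at 0.217, 0.667, 0.986 and 0.579 CPM in control 1, 3, 65 and 69 and at 0, 0.749, 0.299 and 2.63 CPM in etanercept 17, 19, 50 and 52. Its highest and lowest values were both in treated mice, 97 counts in all were recorded over the 8 libraries, and the log2 fold change of 0.59 had an SE of 1.28. Without etanercept 52 it was -0.79, and without etanercept 17 it was 1.002. No direction can be given for Lif from these 8 mice. Of 7 other cytokine genes and subunits of the family (Il11, Il27, Osm, Ctf1, Clcf1, Cntf and Ebi3), 3 were tested, and 0 were lower and 0 higher at the unadjusted threshold.

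Among the receptors, the IL-6-specific chain and the shared chain had different values. Il6ra was at 16.0, 12.5, 16.4 and 12.3 CPM in control 1, 3, 65 and 69 and at 6.76, 11.3, 6.46 and 5.13 CPM in etanercept 17, 19, 50 and 52. All 4 treated mice lay below all 4 control mice, with etanercept 19 close under control 69. The mean was 14.3 ± 2.21 CPM in the control group and 7.42 ± 2.71 CPM in the etanercept-treated group (SD, n = 4), and the log2 fold change was -0.95 (SE 0.31, adjusted p = 0.739). It stayed between -1.22 and -0.81 when each mouse was left out in turn and was -0.96 without control 3 and etanercept 17. The gene (chromosome 3, 89864059 to 89913196, minus strand, GRCm38) shares 242 exonic bases with Gm42809 on the other strand, and since the library kit does not mark strand, their reads cannot be told apart there.

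Il6st was at 137, 194, 135 and 107 CPM in control 1, 3, 65 and 69 and at 206, 146, 177 and 158 CPM in etanercept 17, 19, 50 and 52. Control 3 lay above 3 of the treated mice, and the groups overlapped. The mean was 143 ± 36.2 CPM against 172 ± 26.2 CPM (SD, n = 4), and the log2 fold change was 0.26 (SE 0.21), or 0.14 without control 69, 0.16 without etanercept 17 and 0.12 with the length trend removed. Without control 3 it was 0.44 and passed the unadjusted threshold as higher. Of 5 other receptor genes of the family (Il11ra1, Lifr, Osmr, Cntfr and Il27ra), all were tested, with 0 lower and 0 higher at the unadjusted threshold and a median log2 fold change of -0.067.

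Stat3, the factor on which the receptor signal converges, was at 132, 106, 97.6 and 90.5 CPM in control 1, 3, 65 and 69 and at 105, 106, 99.4 and 87.7 CPM in etanercept 17, 19, 50 and 52. Apart from control 1, the values of both groups covered nearly the same span. The mean was 106 ± 18.2 CPM against 99.5 ± 8.45 CPM (SD, n = 4), with a log2 fold change of -0.097 (SE 0.16), which was 0.0052 without control 1. The log2 fold change was -0.23 (SE 0.17) with the length trend removed and -0.19 (SE 0.18) with library size alone. These are mRNA levels, and the phosphorylation that activates Stat3 was not measured here. The exons of Stat3 share 72 nt with Stat5a on the other strand, and their reads cannot be told apart there.

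The 3 SOCS genes encode feedback inhibitors of cytokine receptors and JAK kinases. Socs3, the inhibitor that binds gp130, was at 12.9, 18.9, 16.6 and 10.8 CPM in control 1, 3, 65 and 69 and at 4.60, 7.27, 7.23 and 6.10 CPM in etanercept 17, 19, 50 and 52. The groups did not overlap. The mean was 14.8 ± 3.60 CPM against 6.30 ± 1.26 CPM (SD, n = 4), 2.35-fold higher in the control group by the fit, with a log2 fold change of -1.23 (SE 0.29, adjusted p = 0.739 in edgeR and 0.0611 in DESeq2). Leaving out single mice gave values between -1.35 and -1.09, and the value was -0.97 without control 3 and etanercept 17, and -1.08 after removal of the trend of each library with GC content. Against Stat3, its inducer, the ratio of Socs3 in FPKM was 0.323, 0.588, 0.559 and 0.394 in the control mice and 0.144, 0.226, 0.240 and 0.229 in the treated mice. As Stat3 differed little between the groups, the lack of overlap in this ratio follows largely from Socs3 itself and is no separate result. Socs3 lies on chromosome 11, 117966079 to 117970047, minus strand, and overlaps no other exon.

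Socs1, an inhibitor of JAK kinases that is induced mainly by interferons, was at 8.71, 11.1, 8.52 and 4.17 CPM in control 1, 3, 65 and 69 and at 1.22, 4.97, 6.995 and 2.84 CPM in etanercept 17, 19, 50 and 52. Control 69 lay below etanercept 19 and 50, and the groups overlapped. The log2 fold change was -1.02 (SE 0.55) and was -0.53 without control 3 and etanercept 17, the highest control and the lowest treated mouse. It was -1.43 without etanercept 50 and -0.71 without etanercept 17.

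Socs2, which is induced by growth hormone and prolactin through Stat5 and restrains growth hormone signalling, was at 48.6, 30.1, 36.7 and 9.14 CPM in control 1, 3, 65 and 69 and at 63.5, 19.8, 18.2 and 50.8 CPM in etanercept 17, 19, 50 and 52. The mean was 31.2 ± 16.6 CPM against 38.1 ± 22.6 CPM (SD, n = 4), a difference smaller than the SD of either group, and the log2 fold change of 0.29 (SE 0.53) was -0.016 without control 69, -0.074 without etanercept 17 and -0.091 without control 3 and etanercept 17. Its levels over the 8 mice are set beside those of 3 genes that were chosen after the values had been seen, Stat5a, the prostate secretory gene Pbsn (probasin) and the ventral lobe secretory gene Sbp (spermine-binding protein), so that these relations are a description with no test. Log2(CPM + 1) of Socs2 had a Pearson r of 0.84 and a Spearman rho of 0.83 with Stat5a (n = 8 mice), and r was 0.88 without control 65 and etanercept 17, the mice farthest from the Stat5a median.

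With Pbsn, Socs2 had an r of 0.92 and a rho of 0.76, and r was 0.76 without control 69 and etanercept 50. With Sbp the relation was negative, with an r of -0.81, a rho of -0.88 and an r of -0.78 without control 1 and etanercept 17. Each relation had the same sign within both groups, with r of 0.73 and 0.97 for Stat5a, 0.95 and 0.91 for Pbsn and -0.87 and -0.84 for Sbp in the control and etanercept-treated mice. Sbp ranged from 1547 CPM in control 1 to 225760 CPM in control 69, and since CPM are shares of a library, abundant secretory genes and all other genes are not independent of each other. How much of each prostate lobe a sample held was not measured here.

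**Figure D2:**
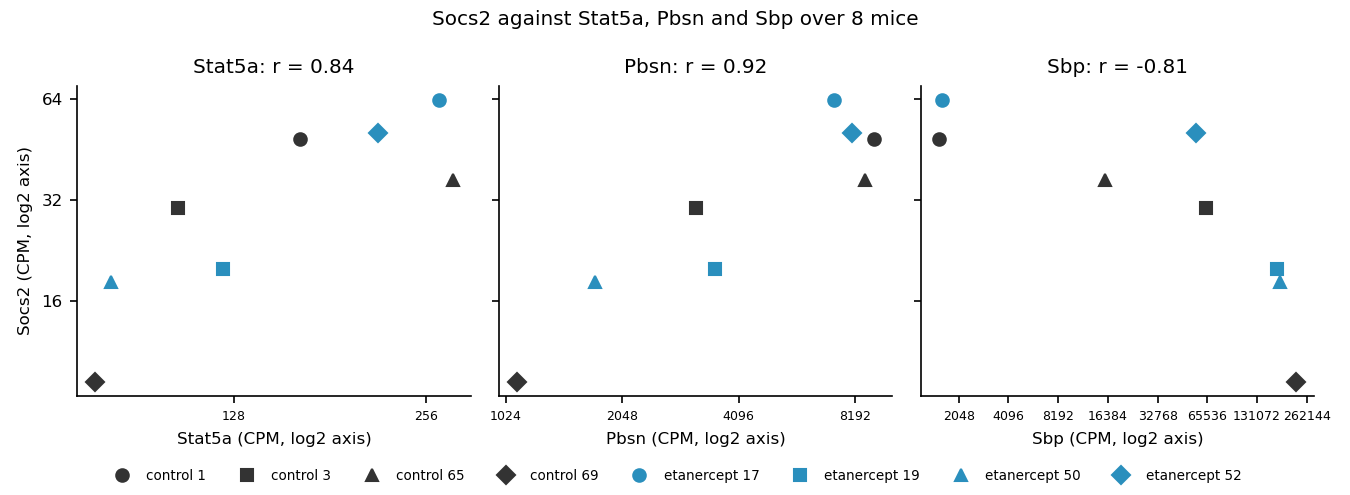
Socs2 against Stat5a, Pbsn and Sbp, 1 panel each. Both axes are TMM-scaled CPM on log2 axes, and each point is 1 of 8 mice, with control mice dark, etanercept-treated mice blue and the symbols naming the animal. Points climb from control 69 towards etanercept 17 in the first and second panel (r of 0.84 and 0.92) and descend in the third (r of -0.81), with both groups spread along the whole range.

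Of 5 other genes of the SOCS family (Cish, Socs4, Socs5, Socs6 and Socs7), all were tested, with 0 lower and 0 higher at the unadjusted threshold and a median log2 fold change of 0.039. Cish, which like Socs2 is a Stat5 target, ranged from 7.74 to 15.5 CPM in the control mice and from 4.25 to 13.0 CPM in the treated mice. It did not rise with Socs2 over the mice. Cish was lowest, at 4.25, 5.197 and 7.74 CPM, in etanercept 17, etanercept 52 and control 1, where Socs2 was highest. In control 69, where Socs2 was lowest (9.14 CPM), Cish was at 15.4 CPM. Control 65 went the other way, with Cish at 15.5 CPM and Socs2 at 36.7 CPM. The relation of Cish to Socs2 or Stat5a was not tested.

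The C/EBP factors were both lower at the unadjusted threshold, Cebpb without and Cebpd with overlap of the groups. Cebpb, which is named for its binding of CCAAT boxes and activates cytokine and acute-phase genes, was at 47.5, 34.9, 27.9 and 28.5 CPM in control 1, 3, 65 and 69 and at 19.6, 20.001, 16.0 and 18.7 CPM in etanercept 17, 19, 50 and 52. The treated mice lay within a narrow span below every control mouse. The mean was 34.7 ± 9.13 CPM against 18.6 ± 1.81 CPM (SD, n = 4), 1.87-fold higher in the control group by the fit, with a log2 fold change of -0.90 (SE 0.21, adjusted p = 0.739 in edgeR and 0.134 in DESeq2). Leaving out single mice gave -1.01 to -0.73, and the value was -0.93 without control 3 and etanercept 17.

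The transcript of Cebpb is a single exon of 1504 nt on chromosome 2 (167688915 to 167690418, plus strand), of which 312 nt overlap Tmem189 on the other strand, and 67.2% of its bases are G or C. Both length and GC content moved with the groups in these libraries. The Spearman rho, over genes, of each library's deviation from the mean with GC content was 0.000642 to 0.240 in the control mice and -0.145 to -0.0722 in the treated mice, and that with exon length was -0.159 to -0.0114 against 0.0638 to 0.154. For both traits the exact two-sided permutation test over 70 assignments gave p = 0.0286, the smallest it allows, and 0.229 after adjustment over 16 traits. With the GC trend removed the log2 fold change of Cebpb was -0.62 (SE 0.19), and with the length trend removed it was -0.75 (SE 0.20).

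Cebpd, the other IL-6-inducible factor of the family, was at 47.0, 63.7, 46.4 and 13.8 CPM in control 1, 3, 65 and 69 and at 21.6, 14.5, 21.2 and 13.6 CPM in etanercept 17, 19, 50 and 52. Control 1, 3 and 65 lay above every treated mouse, and control 69 lay below 3 of them. The mean was 42.7 ± 20.9 CPM against 17.7 ± 4.26 CPM (SD, n = 4), with a log2 fold change of -1.27 (SE 0.40, adjusted p = 0.739), which was -1.56 (SE 0.24) without control 69 and -1.01 without control 3. The exons of Cebpd share 562 nt with Spidr on the other strand. Control 69 was also the lowest control mouse for Il6ra, Il6st, Stat3, Socs1, Socs2 and Socs3. Of 4 other C/EBP genes 3 were tested, with 0 lower and 0 higher. Of these, Cebpa had a log2 fold change of -0.43 (SE 0.32), or -0.23 without control 3 and -0.77 without etanercept 17. Cebpg had one of 0.028 (SE 0.25), or -0.23 without etanercept 17, and the third gene, Ddit3, one of -0.73 (SE 0.43), or -0.40 without control 65.

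**Figure D3:**
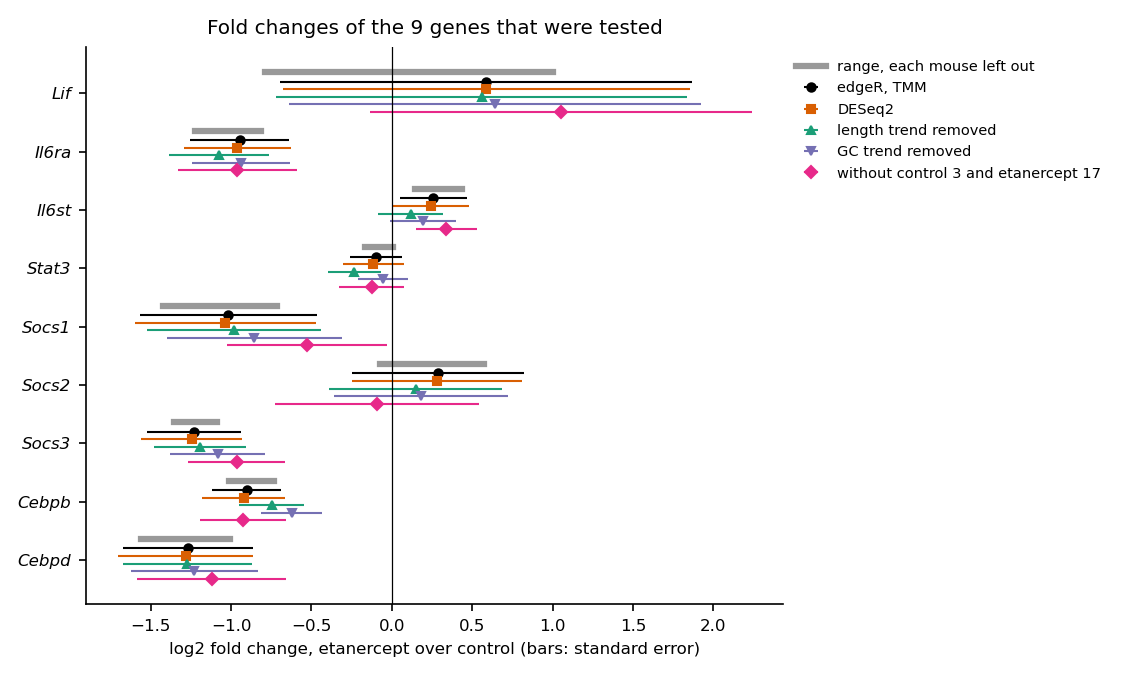
Log2 fold change of etanercept over control for the 9 pathway genes tested. Points are the estimates under 5 ways of processing with their standard error as bars, and the grey bar above each is the range when 1 of the 8 mice at a time was left out. Il6ra, Socs1, Socs3, Cebpb and Cebpd lie below 0 under all of these, Il6st lies above 0, and the estimates of Lif, Stat3 and Socs2 change sign.

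Variation between mice of the same group does not use the contrast between the groups, so it was asked which pathway genes varied together after the group means were removed. Of 36 pairs, 26 had a positive and 10 a negative r, with a median of 0.256. At an adjusted p of at most 0.05, 0 pairs were correlated (exact permutation within groups over 576 orders, smallest adjusted p = 0.25), and 4 pairs passed unadjusted. With 576 orders and 36 pairs, no single pair could pass after adjustment, so this count says nothing on whether genes vary together. The highest r was that of Socs1 with Socs3 (r = 0.88, exact permutation p = 0.00694, adjusted 0.25, rho = 0.83, exact permutation p = 0.0208, adjusted 0.25), and it was 0.58 without the 2 mice farthest from the median of Socs1. The other 3 pairs were Il6st with Cebpd (r = 0.85), Stat3 with Cebpb (r = 0.84) and Lif with Stat3 (r = -0.60), each with an adjusted p of 0.422 in the exact permutation test, and without the 2 mice farthest from the median of the first gene their r was 0.67, 0.47 and -0.57. Stat3 and its target Socs3 had an r of 0.036 (exact permutation p = 0.95, adjusted 0.96), and Socs3 and Cebpb had an r of -0.12 (exact permutation p = 0.85, adjusted 0.96).

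Over all 8 mice, with the group difference included, the genes most like Socs3 among 15471 genes by Pearson r of log2(CPM + 1) were Szrd1 (0.97), Myl4 (0.96) and Cd209g (0.96), and those most like Cebpb were Efhd2 (0.96), Plcl2 (0.95) and Snrpa (0.95). Of these genes, Efhd2 ranged from 147 to 186 CPM in the control mice and from 120 to 142 CPM in the treated mice. Myl4 ranged from 2.66 to 4.87 CPM against 0 to 1.55 CPM, and Cd209g from 1.10 to 2.33 CPM against 0.524 to 0.909 CPM. The r of Myl4 and of Cd209g thus rests on low levels. Among the pathway genes, Socs1 was closest to Socs3 (r = 0.86, rank 107) and Il6ra closest to Cebpb (r = 0.81, rank 192). These likenesses over 8 mice are descriptions, and all contain the difference between the groups.

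The rest of the pathway was then described from a list of 35 further genes, of which 30 were tested. At the unadjusted threshold 1 was lower, Jak3, and 0 were higher. The number lower was 0 without control 1, etanercept 19 or etanercept 50 and with the GC trend removed or the animal number as covariate, 2 without etanercept 17 and 3 without control 69. Without control 3 and without etanercept 17, 1 gene was higher. The median log2 fold change was 0.013, close to that of all genes tested (-0.0099), and 14 of the 30 were negative. Jak3, the kinase of the common gamma chain receptors of lymphocytes, was at 12.4, 13.8, 7.33 and 3.82 CPM in control 1, 3, 65 and 69 against 3.73, 2.30, 3.65 and 6.93 CPM in etanercept 17, 19, 50 and 52, so that the groups overlapped, with a log2 fold change of -1.17 (SE 0.50, adjusted p = 0.743). The other JAK kinases did not pass, and Jak2, which binds gp130, had a log2 fold change of 0.39 (SE 0.23), or 0.22 without control 1. The phosphatase Ptpn11 (SHP2), which competes with Socs3 for its site on gp130, had one of 0.40 (SE 0.19), or 0.26 without control 1. Osmr, the receptor chain for oncostatin M, had one of -0.63 (SE 0.42), or -0.35 without control 3.

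Tnf, whose product etanercept binds, was at 2.39, 1.20, 0 and 0 CPM in control 1, 3, 65 and 69 and at 0, 0, 0.478 and 0 CPM in etanercept 17, 19, 50 and 52, and was not tested.

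Genes that Stat3 is known to induce were taken as a separate list of 20, and all were tested. At the unadjusted threshold 8 were lower (Bcl3, Junb, Fos, Pim1, Bcl2l1, Timp1, Egr1 and Zfp36) and 0 were higher, against 3.63% and 2.99% of all genes tested. Of the 20, 16 were negative, as were 7884 of the 15472 genes, and the median log2 fold change was -0.58 against -0.0099 over all genes. Of these, Junb, Fos, Egr1 and Zfp36 are immediate early genes. The list was written with earlier results of these mice known. Bcl2l1, an inhibitor of apoptosis, was the only one of the 5 with the smallest p whose groups did not overlap, at 174, 119, 131 and 164 CPM in control 1, 3, 65 and 69 and 66.2, 106, 106 and 59.2 CPM in etanercept 17, 19, 50 and 52 (log2 fold change -0.80, SE 0.24, adjusted p = 0.739). Timp1, an inhibitor of matrix proteases, was at 14.1, 17.9, 8.52 and 6.48 CPM against 3.38, 3.69, 8.13 and 6.31 CPM (log2 fold change -1.13, SE 0.44, or -0.68 without control 3 and etanercept 17), and control 69 lay among the treated mice.

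Egr1, an immediate early transcription factor, ranged from 13.3 CPM in control 69 to 92.7 CPM in control 1 and from 13.7 to 25.8 CPM in the treated mice (log2 fold change -1.42, SE 0.54). Junb had a log2 fold change of -0.70 (SE 0.28) and Pim1, a survival kinase, of -0.71 (SE 0.29). The number of lower genes rested on single libraries. It was 1 without control 1 and 1 without control 3, 3 without etanercept 17, 50 or 52, 4 without etanercept 19, 7 without control 65, 9 without control 69, and 3 without control 3 and etanercept 17, where the median was -0.19. With single mice left out, the median was between -0.68, without control 65, and -0.23, without control 3. In place of 0, 1 gene was higher without control 3, etanercept 17 or etanercept 19, and without control 3 and etanercept 17 together. The number of lower genes was 3 with the GC trend and 5 with the length trend removed.

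The acute-phase list, of proteins that IL-6, Stat3 and the C/EBP factors induce in liver, held 24 genes, of which 12 were tested. Saa2, Saa4, Fga, Fgg and Apcs had 0 counts in every mouse. Of the 12 tested, 2 were lower, 0 were higher, 11 were negative, and the median log2 fold change was -0.36. Haptoglobin (Hp) was at 19.2, 24.0, 5.07 and 16.7 CPM in control 1, 3, 65 and 69 and at 2.97, 5.56, 7.71 and 4.71 CPM in etanercept 17, 19, 50 and 52, with control 65 among the treated mice (log2 fold change -1.63, SE 0.48, adjusted p = 0.739). Steap4, a metalloreductase, had a log2 fold change of -0.95 (SE 0.39), or -0.50 without control 3 and etanercept 17. Complement C3 (-0.75, SE 0.42), Lrg1 (-0.38, SE 0.24) and Il1rn (-1.80, SE 1.42), as log2 fold changes, did not pass, and without control 3 these values were -0.11, -0.20 and -1.07. Without control 3 and etanercept 17, 0 genes of the list were lower and its median was -0.25, and without control 3 alone 1 gene was lower and the median was -0.0082. The median was -0.72 without etanercept 17 and -0.62 without control 69, and 3 genes were lower without control 1 and 1 gene without control 65, etanercept 17, 50 or 52.

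**Figure D4:**
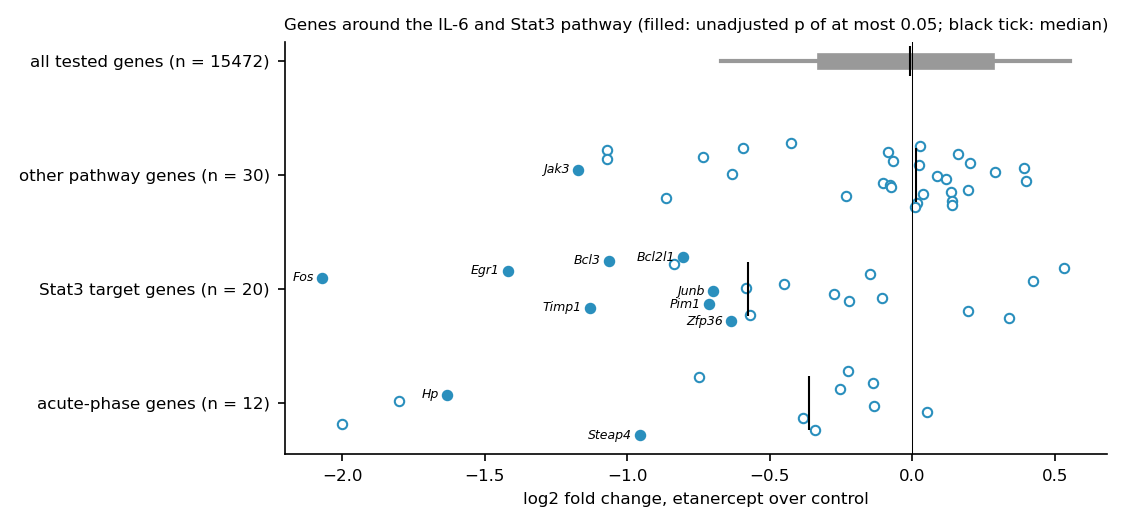
Log2 fold change of etanercept over control for 30 other pathway genes, 20 Stat3 target genes and 12 acute-phase genes, with all 15472 tested genes as a grey bar (thin, 10th to 90th percentile, thick, 25th to 75th). Each circle is 1 gene, filled and named where its unadjusted p was at most 0.05, and black ticks are medians. The other pathway genes centre on 0 (median 0.013), while the medians of the Stat3 target and acute-phase genes lie at -0.58 and -0.36.

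Markers of other cell types are given beside these values. Of all genes tested, 3.63% were lower and 2.99% higher at the unadjusted threshold. All 8 macrophage markers had a negative log2 fold change and 3 were lower at the unadjusted threshold, with a summed level of 313 to 966 CPM in the control mice, or to 496 CPM without control 3, and 245 to 337 CPM in the treated mice. All 7 T cell markers were negative and 3 were lower, at 58.3 to 146 CPM against 44.4 to 67.6 CPM. The number of lower macrophage markers was 1 without control 3, 1 without etanercept 50, 5 without control 1 or control 69, and 1 with the GC trend removed. Without control 3 and etanercept 17, 0 macrophage and 0 T cell markers were lower. All 6 B and plasma cell markers were negative and 2 were lower, at 354 to 4106 CPM, or to 2148 CPM without control 3, against 226 to 894 CPM. All 5 adipocyte markers that were tested were negative and 4 were lower, at 24.0 to 326 CPM, or to 174 CPM without control 3, against 20.1 to 29.9 CPM, with Adipoq at 0 in 2 mice. Of 5 smooth muscle markers 3 were higher, at 3038 to 6214 CPM against 5552 to 11060 CPM. Of 5 skeletal muscle markers 4 were tested, 3 were negative, 1 was lower and 0 were higher, with a median log2 fold change of -1.52. Their summed level was 67.6 to 1664 CPM in the control mice, or to 519 CPM without control 3, against 690 to 1311 CPM.

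The 5 general leukocyte markers were also all negative, with a median log2 fold change of -0.29, but 0 were lower, at 253 to 682 CPM against 235 to 450 CPM. Without control 3 the highest control mouse was at 309 CPM, and without etanercept 17 the highest treated mouse was at 283 CPM. Of 7 neutrophil markers 1 was tested, and S100a8 was at 0 in all 8 mice. The 5 endothelial markers (59.7 to 148 CPM against 46.4 to 72.2 CPM), 5 fibroblast markers (385 to 960 CPM against 512 to 910 CPM) and 6 epithelial markers (1671 to 2416 CPM against 1528 to 2009 CPM) had 0 genes lower and 0 higher. Control 3 set the upper limit of the endothelial and fibroblast markers in the control mice, which was 76.9 and 504 CPM without it. All 5 endothelial markers and 5 of the 6 epithelial markers were negative, with medians of -0.53 and -0.44. The mean log2(CPM + 1) of the adipocyte markers averaged 3.12 over control and 1.29 over treated mice, and that of the smooth muscle markers 9.08 and 9.88. In an exact two-sided permutation test the adjusted p over 16 traits was 0.229 or more for every list, but as 70 assignments allow no p below 0.0286, a single list could not pass after adjustment. The part of these cell types in the values of Socs3, Cebpb, Cebpd, Il6ra and Socs1 was not tested.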

How the data were processed

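Prostate RNA from 8 NOD mice was processed, 4 control and 4 etanercept-treated. Per the labels, the authors used fastp, STAR 2.6.1d, featureCounts 1.5.0-p3 and DESeq2 1.26.0 with the mm10 build, on poly(A)-selected RNA. The deposited values are raw counts per gene and mouse, without normalization. The library kit (NEBNext Ultra II) does not mark strand, and the counting settings and annotation release are not given in the sources used here. PCR duplicates are not marked, so intervals cover counting error only.

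Genes were named by GENCODE M21 (GRCm38), and 37 identifiers had no symbol. The test was edgeR 4.0.16 (R 4.3.3) with TMM factors, filterByExpr with a minimum count of 10, glmQLFit and glmQLFTest, all 8 mice and no covariate, with Benjamini-Hochberg adjustment. Alternatives were upper-quartile, RLE or no scaling factors beside library size, DESeq2 1.42.0, other filters, a robust fit, removal of GC or length trends (lowess, span 0.3), animal number (below 20 or above 49) as covariate, another pseudocount (0.25 in place of 1) and leaving out each mouse. Leaving out control 3 and etanercept 17 together was added after the data were seen. The scripts were tested on simulated data.

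The members and lists were chosen with earlier results of these data known, and some genes are not reported here. Named genes were the 10 members, the 5 genes with the smallest p and those at 0 in every mouse of each of 3 lists, the 3 genes most like Socs3 and Cebpb, and Tnf. Stat5a, Pbsn, Sbp, Cish, Cebpa, Cebpg and further listed genes were added once values had been seen. The p-values measure the spread between single mice.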

Additional observations from a re-analysis of the deposited data

Results flagged for a closer look

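Il6 in etanercept 17, at 1.69 CPM, stood apart from the other 3 etanercept-treated mice, which had 0 counts. The gap to the nearest mouse divided by the range of the group was 1, above Dixon's critical value for 4 samples at a level of 95%. With the other 3 mice at 0 counts this ratio is 1 for any count above 0, so that it says nothing on the size of the value. This was 1 of 20 groups of 4 mice examined over the 10 genes, and chance marks about 1 in 20.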

How the results depend on the processing

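The number of genes called was 0 under 18 of 19 alternatives and 21 with DESeq2, and the 10 pathway genes and the 35 other pathway genes had 0 called under all 19. The number of pathway genes lower at the unadjusted threshold was 4, and 4 to 5 with each mouse left out, where Socs1 was the fifth without control 69 and without etanercept 50. Log2 fold changes reversed for Lif without etanercept 52 (single mice left out gave -0.79 to 1.002), for Stat3 without control 1 (-0.17 to 0.0052) and for Socs2 without control 69 (-0.016) and without etanercept 17 (-0.074 to 0.57) and without control 3 and etanercept 17 (-0.091). Il6ra, Il6st, Socs1, Socs3, Cebpb and Cebpd kept their direction under all 19, with adjusted p from 0.0611, for Socs3 with DESeq2, upwards. The cause of these shifts was not tested. No single pair of pathway genes could pass after adjustment in the test of pairs. No paired analysis was possible because the groups share no animal number. With 4 mice per group and a biological coefficient of variation of 0.547, and with 29 counts for Il6 and 97 for Lif, depth and number of mice limit what could be detected.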
